A study of Mus musculus with 6 samples.

Results

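Collagen chain genes were followed in hearts lacking miR-27b-3p and in wild-type hearts after pressure overload. They were chosen by name, as every gene with a mouse symbol made of Col, a number, the letter a and a second number. Of the 17570 genes listed for every heart, 43 met the rule. One further collagen gene of the RefSeq table, Col10a1, was not analysed here. Of the 43 genes, 29 averaged at least 0.5 FPKM (a level scaled by the authors for transcript length and sequencing depth) and were tested, and the other 14 are given by their range.

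The KO/TAC group held 3 hearts of mice homozygous for a 10-base deletion in Mir27b, made by TALEN nucleases in C57BL/6 eggs, a germline change that is not limited to 1 cell type. The WT/TAC group held 3 wild-type hearts of the C57Bl/6J strain. All 6 mice had undergone transverse aortic constriction (TAC), a surgical narrowing of the aorta that loads the left ventricle, at 10 to 12 weeks of age, 8 weeks before total RNA was taken, and unoperated or sham hearts were not analysed here. The labels name the tissue as heart without giving the chamber or the sex of the mice, and one line of their extraction text names granulosa cells instead. Values are given for replicates 1, 2 and 3 of each group in that order.

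Collagens are secreted proteins in which 3 chains wind into a triple helix, and each gene encodes 1 kind of chain. Fibrillar collagens such as types I, III and V form the load-bearing fibres of heart muscle and its scars and are made mainly by fibroblasts. Type IV collagen forms the sheet of the basement membrane around capillaries and cardiomyocytes, type VI forms beaded filaments, and FACIT collagens (fibril-associated collagens with interrupted triple helices) coat the surface of fibrils. Pressure overload is known to bring collagen into the interstitium of the ventricle.

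The libraries differed in chamber genes and in estimated depth, and of these Myl7 did not follow the groups. Myl7, the light chain of atrial myosin, was 0.25, 333 and 0.66 FPKM in the KO/TAC hearts, against 8140, 0.23 and 1135 FPKM in the WT/TAC hearts. Myl2, the light chain of ventricular myosin, ranged over 13034 to 14329 FPKM in the KO/TAC hearts, against 81.0, 11784 and 9735 FPKM in the WT/TAC hearts. WT/TAC replicate 1 thus had much of the atrial and little of the ventricular chain, although its label says heart, and the main results are also given without it. The depth could only be estimated roughly, from the spacing of the lowest FPKM values, at 12800000 to 13100000 fragments in KO/TAC hearts and 15300000 to 15900000 in WT/TAC hearts. By this estimate every KO/TAC heart had fewer fragments than every WT/TAC heart, so depth and genotype cannot be told apart.

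The transcripts of 15 of the 29 collagen genes tested were lower in KO/TAC than in WT/TAC hearts, and 0 were higher. A gene was counted where limma gave an unadjusted p below 0.05 with a fold of 1.2 or more, limits that follow the study's own table, and 6.14% of all 12520 genes tested were lower and 4.94% higher by them. The 15 comprised the chains of type I (Col1a1, Col1a2), type III (Col3a1), the major chains of type V (Col5a1, Col5a2), Col4a4 and Col4a5 of type IV, Col6a1 and Col6a2 of type VI, the FACIT genes Col9a2, Col12a1, Col14a1 and Col16a1, and Col8a2 and Col15a1. Of the 29 genes 5 averaged less than 0.5 FPKM in KO/TAC hearts and passed the minimum only through the mean of the WT/TAC hearts. These were Col9a2, Col12a1 and Col8a2, which are among the 15, and Col4a6 and Col11a2, which are not. Of the 24 genes at the minimum in both groups, 12 were lower. The median log2 fold change over the 29 genes, the 5 that passed only through WT/TAC hearts included, was -0.65, beside -0.005 over all genes tested. All log2 fold changes are differences of log2(FPKM + 0.5), KO/TAC over WT/TAC, a scale that understates changes of genes near or below 0.5 FPKM.

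No collagen gene passed an adjusted p of 0.05 (limma with Benjamini-Hochberg adjustment over all genes tested), the smallest being 0.167 for Col1a2, and 2 of the 12520 genes did, or 0.016%. Without WT/TAC replicate 1, 13 of 30 collagen genes were lower and 0 higher, when 7.49% of all genes were lower, 7.55% were higher and 0.113% passed the adjusted limit. The smallest adjusted p of a collagen gene in that fit (limma) was 0.0922, for Col12a1 and Col8a2. Both passed the minimum only through the WT/TAC hearts, and the adjusted p of Col1a2 was 0.101. In 12 of the 29 genes every KO/TAC heart lay below every WT/TAC heart, and in 0 above, whereas 9.79% of all genes lay wholly below and 8.46% wholly above. Col9a2, Col12a1 and Col8a2 are among these 12 and passed the minimum only through the WT/TAC hearts. The fitted change was negative in 26 of the 29 genes, against 50.8% of all genes. The 26 include all 5 genes that passed the minimum only through the WT/TAC hearts. Since RNA was taken from whole tissue, fewer collagen-making cells and less collagen RNA per cell cannot be told apart.

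**Figure D1:**
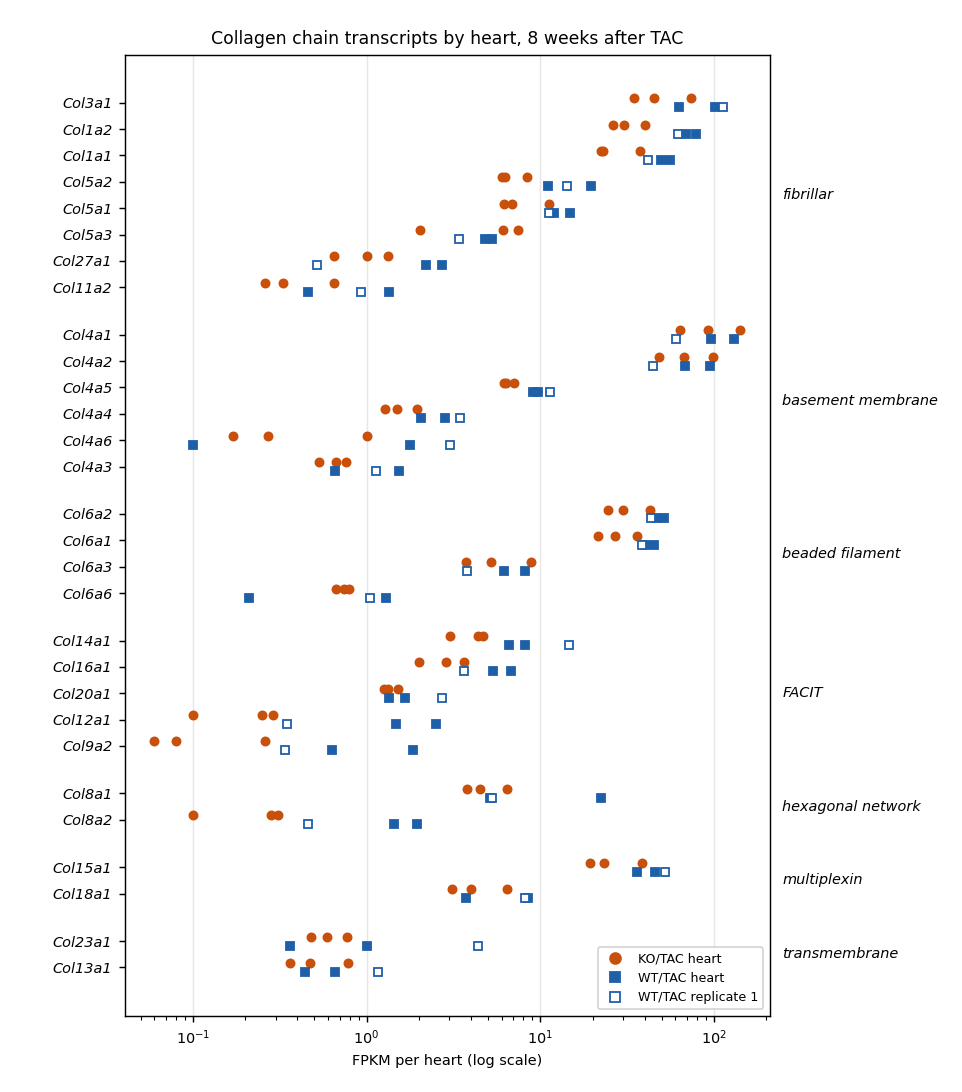
Level of the 29 collagen genes tested in each heart, in FPKM on a log scale, with KO/TAC hearts as orange circles above WT/TAC hearts as blue squares, WT/TAC replicate 1 as an open square, and genes grouped by type of collagen. In the type I genes the KO/TAC hearts lie left of all WT/TAC hearts, whereas in Col4a1 and Col4a2 the groups are mixed.

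**Figure D2:**
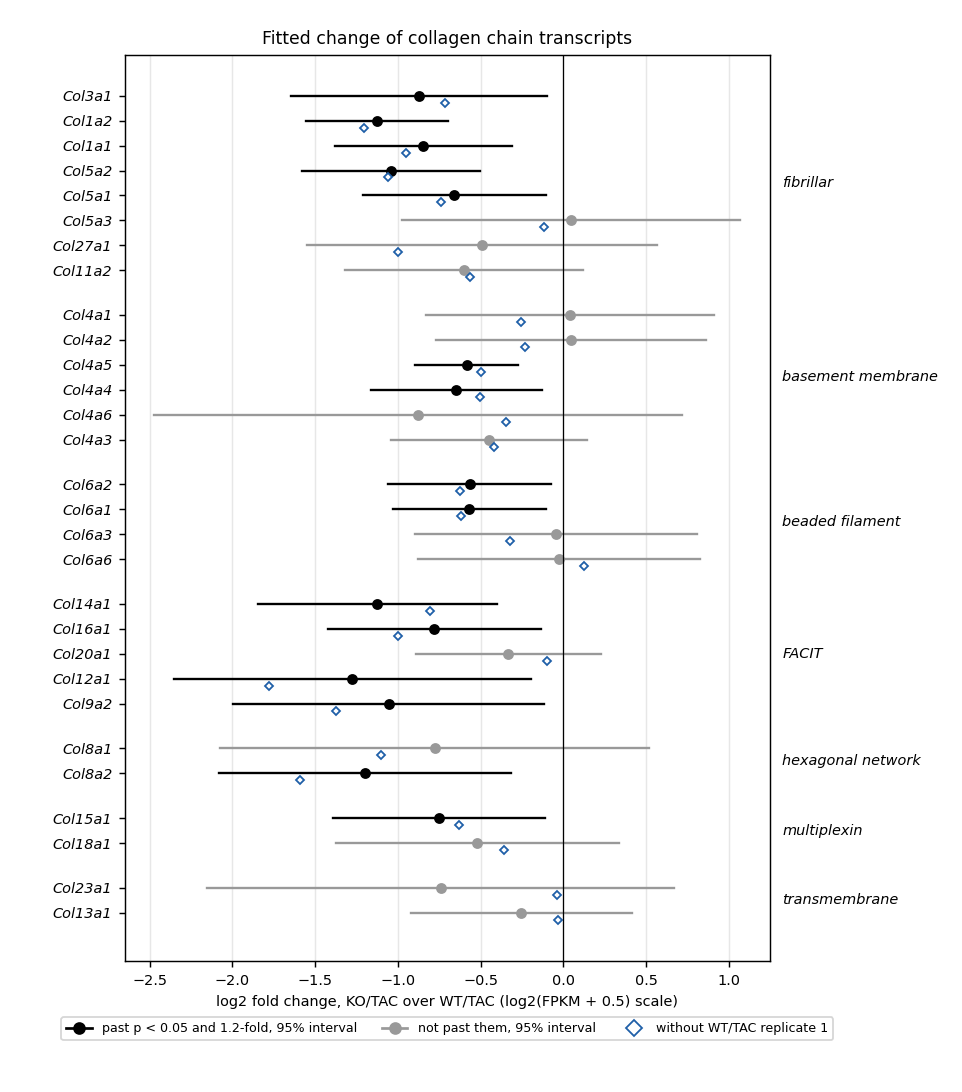
Log2 fold change of each collagen gene, KO/TAC over WT/TAC, with its 95% interval (limma). Black marks the 15 genes past an unadjusted p of 0.05 and a fold of 1.2, grey the 14 others, and open diamonds the fit without WT/TAC replicate 1. The intervals of Col4a1, Col4a2 and Col5a3 span 0 on both sides.

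Type I collagen, the main component of stiff fibres, showed the smallest p of all collagen genes. Col1a2 (Entrez Gene 12843), which encodes its α2 chain, was 39.9, 30.3 and 26.3 FPKM in the KO/TAC hearts, against 62.3, 79.1 and 68.6 FPKM in the WT/TAC hearts. Each KO/TAC heart lay well below the lowest WT/TAC heart. The means were 32.1 ± 6.98 FPKM in KO/TAC and 70.0 ± 8.51 FPKM in WT/TAC (SD, 3 hearts each), so that the KO/TAC mean was 45.9% of the WT/TAC mean. The log2 fold change of Col1a2 was -1.13 with a standard error of 0.18 (adjusted p = 0.167, limma), and -1.21 without WT/TAC replicate 1.

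The start of Col1a2 is shown because this gene had the smallest p of the family. The window runs from 250 bases before to 50 bases after the transcription start of RefSeq at chr6:4505368-4505667 of GRCm38.p6, plus strand. Capitals mark the CCAAT box (CCAAT, or ATTGG on the other strand) and the GC box (GGGCGG, or CCGCCC on the other strand), and the TATA box (TATAAA or TTTATA) was searched as well. The window holds each of the first 2 motifs 2 times, the last ATTGG lying at the start itself, and no match to TATAAA or TTTATA.
Col1a2 promoter: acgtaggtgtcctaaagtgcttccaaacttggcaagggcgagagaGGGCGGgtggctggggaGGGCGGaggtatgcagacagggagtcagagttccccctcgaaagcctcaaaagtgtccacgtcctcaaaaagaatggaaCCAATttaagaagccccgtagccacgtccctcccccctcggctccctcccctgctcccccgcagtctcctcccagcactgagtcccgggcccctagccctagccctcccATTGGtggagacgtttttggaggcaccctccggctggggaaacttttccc

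Col1a1 (Entrez Gene 12842), which encodes the α1 chain present in 2 copies per type I molecule, was 37.7, 23.0 and 22.4 FPKM in the KO/TAC hearts, against 41.9, 55.5 and 49.8 FPKM in the WT/TAC hearts. KO/TAC replicate 1 came close to the lowest WT/TAC heart, and the groups did not overlap. The means were 27.7 ± 8.63 FPKM in KO/TAC and 49.1 ± 6.84 FPKM in WT/TAC (SD, 3 hearts each). Col1a1 had a log2 fold change of -0.85 with a standard error of 0.22 (adjusted p = 0.288, limma), or -0.95 without WT/TAC replicate 1.

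Col3a1, the single chain of type III collagen, which forms finer and more pliable fibres than type I, was the most abundant fibrillar chain. Its levels were 74.1, 34.8 and 44.9 FPKM in the KO/TAC hearts, against 112, 102 and 63.1 FPKM in the WT/TAC hearts. KO/TAC replicate 1 was above WT/TAC replicate 3, so the groups overlapped. For Col3a1 the log2 fold change was -0.87 with a standard error of 0.33 (adjusted p = 0.399, limma), and at -0.71 without WT/TAC replicate 1 it no longer passed the unadjusted limit.

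Type V collagen sits in the core of type I fibrils and sets their number and width. Col5a2 (Entrez Gene 12832) was 8.35, 6.03 and 6.30 FPKM in the KO/TAC hearts, against 14.3, 19.5 and 11.1 FPKM in the WT/TAC hearts, without overlap. Its means were 6.89 ± 1.27 FPKM in KO/TAC and 15.0 ± 4.22 FPKM in WT/TAC (SD, 3 hearts each), with a log2 fold change of -1.04 and a standard error of 0.23 (adjusted p = 0.251, limma). Its partner Col5a1 was 11.2, 6.83 and 6.17 FPKM in the KO/TAC hearts, against 11.2, 14.8 and 12 FPKM in the WT/TAC hearts, where KO/TAC replicate 1 and WT/TAC replicate 1 were nearly level at 11.15 and 11.19 FPKM. This gave Col5a1 a log2 fold change of -0.66 (adjusted p = 0.381, limma).

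The third type V chain, Col5a3, did not share this pattern. It was 7.48, 2.02 and 6.08 FPKM in the KO/TAC hearts, against 3.41, 5.27 and 4.80 FPKM in the WT/TAC hearts, so that KO/TAC hearts were both the highest and the lowest. Its log2 fold change was 0.05 with a 95% interval of -0.97 to 1.07, which leaves a change of either sign possible. Of the remaining fibrillar genes tested, Col27a1 (-0.49, interval -1.55 to 0.56) and Col11a2 (-0.60, interval -1.32 to 0.12) did not pass the limits. Without WT/TAC replicate 1, which had the lowest Col27a1 level of all hearts at 0.52 FPKM, the log2 fold change of Col27a1 was -1.0 and passed the unadjusted limit. The cartilage fibril genes Col2a1 and Col11a1 and the fibrillar Col24a1 reached at most 0.14 FPKM in any heart.

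Of the 6 type IV genes, Col4a4 and Col4a5 were lower and the other 4 did not pass the limits, and no test was made between the chains. Col4a1 and Col4a2, which together form the basement membrane network of most tissues, were the first and the third most abundant collagen genes in these hearts. Col4a1 (Entrez Gene 12826) was 142, 63.5 and 92.5 FPKM in the KO/TAC hearts, against 60.4, 131 and 96.5 FPKM in the WT/TAC hearts. Col4a2 (Entrez Gene 12827) was 98.9, 48.1 and 67.1 FPKM in the KO/TAC hearts, against 44.6, 94.5 and 68.5 FPKM in the WT/TAC hearts. Both genes put the 6 hearts in one order, with KO/TAC replicate 1 highest and WT/TAC replicate 1 lowest.

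The group means of Col4a1 were close, at 99.2 ± 39.5 FPKM in KO/TAC and 96.0 ± 35.3 FPKM in WT/TAC (SD, 3 hearts each). The log2 fold change was 0.04 for Col4a1 (interval -0.83 to 0.91) and 0.05 for Col4a2 (interval -0.77 to 0.86), and without WT/TAC replicate 1 it was -0.26 for Col4a1 and -0.23 for Col4a2. The spread between hearts of a group exceeded any difference between the groups, and the intervals do not show that the levels were alike. Levels of endothelial markers differed between hearts as well: the 10 genes of that list summed to 993 to 1413 FPKM in KO/TAC hearts and 675 to 1177 FPKM in WT/TAC hearts, and their part in the type IV values was not tested.

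Col4a1 and Col4a2 lie head to head on chromosome 8, with RefSeq starts 21 bases apart on opposite strands. The window of Col4a2 is shown because it holds both starts of the pair whose transcripts varied together. It covers chr8:11312555-11312854 of GRCm38.p6, plus strand, from 250 bases before to 50 bases after the Col4a2 start, and capitals mark 1 CCAAT box and 3 GC boxes as spelled out for Col1a2.
Col4a2 promoter: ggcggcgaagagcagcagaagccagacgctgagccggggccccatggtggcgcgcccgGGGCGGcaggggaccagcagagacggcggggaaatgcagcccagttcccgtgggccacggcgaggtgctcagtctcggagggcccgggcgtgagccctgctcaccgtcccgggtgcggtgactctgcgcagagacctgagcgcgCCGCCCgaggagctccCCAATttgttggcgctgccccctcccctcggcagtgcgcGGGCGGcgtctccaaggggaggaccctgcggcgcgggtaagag

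Among the other type IV genes, Col4a5, which forms a network with Col4a6 or with Col4a3 and Col4a4 in specialised basement membranes, was 6.31, 7.06 and 6.20 FPKM in the KO/TAC hearts, against 11.3, 9.72 and 9.12 FPKM in the WT/TAC hearts. The groups were clearly apart, with means of 6.52 ± 0.47 FPKM in KO/TAC and 10.1 ± 1.14 FPKM in WT/TAC (SD, 3 hearts each). The log2 fold change of Col4a5 was -0.58 with a standard error of 0.13 (adjusted p = 0.255, limma), and -0.50 without WT/TAC replicate 1. Col4a5 had the smallest ratio of highest to lowest heart of all collagen genes tested, at 1.83.

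Col4a4 was 1.96, 1.5 and 1.28 FPKM in the KO/TAC hearts, against 3.45, 2.83 and 2.06 FPKM in the WT/TAC hearts, a log2 fold change of -0.65 (adjusted p = 0.366, limma). The highest KO/TAC heart was just under the lowest WT/TAC heart, and at -0.50 without WT/TAC replicate 1 the gene no longer passed the unadjusted limit. Its neighbour Col4a3 was 0.76, 0.67 and 0.53 FPKM in the KO/TAC hearts, against 1.14, 1.53 and 0.66 FPKM in the WT/TAC hearts, but did not pass (-0.45, interval -1.04 to 0.14). Col4a6, whose RefSeq start lies 1343 bases from that of Col4a5, was 0.17, 1.01 and 0.27 FPKM in the KO/TAC hearts, against 3.03, 0.10 and 1.78 FPKM in the WT/TAC hearts. It spanned 30.3-fold between hearts and did not follow the groups (-0.88, interval -2.47 to 0.72).

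**Figure D3:**
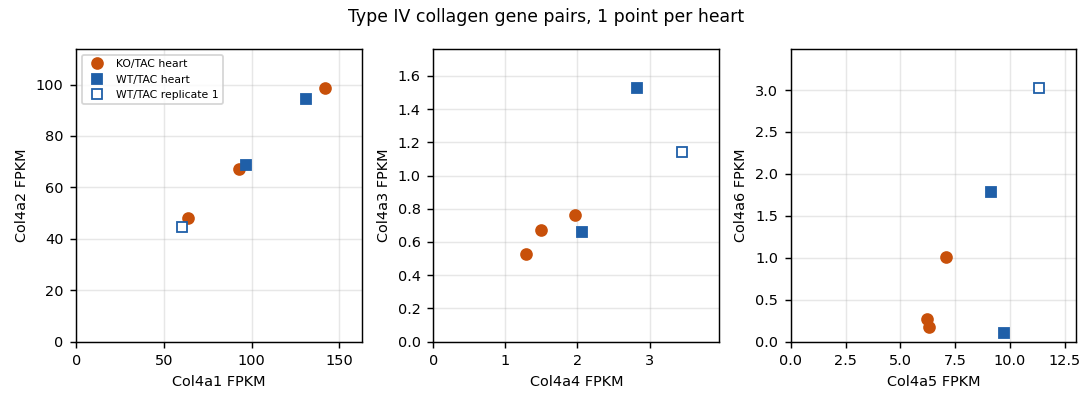
FPKM of the type IV genes that are neighbours in the genome, 1 point per heart (orange circles KO/TAC, blue squares WT/TAC, open square WT/TAC replicate 1), with linear axes from 0. Col4a1 and Col4a2 fall on one line with the groups mixed, the KO/TAC hearts lie left of the WT/TAC hearts in Col4a5, and Col4a6 varies from 0.10 to 3.03 FPKM without following Col4a5.

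Type VI collagen links cells to the surrounding fibres, and its basic unit combines the chains of Col6a1, Col6a2 and 1 more chain, commonly that of Col6a3. Col6a1 was 36.2, 21.5 and 26.9 FPKM in the KO/TAC hearts, against 38.4, 45.0 and 40.2 FPKM in the WT/TAC hearts, a log2 fold change of -0.57 (adjusted p = 0.372, limma). Col6a2 was 42.9, 24.6 and 29.9 FPKM in the KO/TAC hearts, against 43.5, 51.2 and 46.8 FPKM in the WT/TAC hearts, also a log2 fold change of -0.57 (adjusted p = 0.396, limma). In both genes KO/TAC replicate 1 came within a few FPKM of WT/TAC replicate 1, and the groups did not overlap. Col6a3 was 8.84, 3.75 and 5.23 FPKM in the KO/TAC hearts, against 3.76, 6.22 and 8.18 FPKM in the WT/TAC hearts, with overlapping groups and a log2 fold change of -0.04 (interval -0.90 to 0.81). Col6a6, an alternative to Col6a3, reached at most 1.3 FPKM and did not pass (-0.02, interval -0.88 to 0.83).

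Among the FACIT genes, 4 of the 5 tested were lower, of which Col9a2 and Col12a1 passed the minimum only through the WT/TAC hearts. Col14a1, which encodes a chain that binds the surface of type I fibrils and regulates their growth, was 4.70, 4.40 and 3.02 FPKM in the KO/TAC hearts, against 14.7, 6.63 and 8.11 FPKM in the WT/TAC hearts. All KO/TAC hearts were lower than all WT/TAC hearts, and WT/TAC replicate 1 was the highest. For Col14a1 the log2 fold change was -1.13 with a standard error of 0.30 (adjusted p = 0.288, limma), and -0.81 without WT/TAC replicate 1.

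Col16a1 was 3.64, 2.87 and 1.99 FPKM in the KO/TAC hearts, against 3.63, 6.8 and 5.32 FPKM in the WT/TAC hearts, with a log2 fold change of -0.78 (adjusted p = 0.374, limma). KO/TAC replicate 1 exceeded WT/TAC replicate 1 by the smallest possible step, 3.64 against 3.63 FPKM, so the groups overlapped. Col12a1, whose product bridges fibrils, was 0.25, 0.29 and 0.10 FPKM in the KO/TAC hearts, against 0.35, 2.51 and 1.47 FPKM in the WT/TAC hearts. WT/TAC replicates 2 and 3 were far higher than WT/TAC replicate 1, and the log2 fold change of Col12a1 was -1.28 (adjusted p = 0.382, limma), or -1.78 without WT/TAC replicate 1 (adjusted p = 0.0922, limma).

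Col9a2, a chain of the cartilage collagen type IX, was 0.26, 0.06 and 0.08 FPKM in the KO/TAC hearts, against 0.34, 1.84 and 0.63 FPKM in the WT/TAC hearts. These levels rest on as few as 2 fragments in the lowest heart by the rough depth estimate, against 15 for Col12a1 and 1743 for Col1a1. Col9a2 had a log2 fold change of -1.06 (adjusted p = 0.401, limma). Col20a1 did not pass (-0.33, interval -0.89 to 0.23), and the other FACIT genes Col9a1, Col9a3, Col19a1 and Col22a1 reached at most 0.75 FPKM.

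The network-forming type VIII collagen is made by vessel walls and by fibroblasts of the loaded heart. Col8a2 was 0.28, 0.31 and 0.10 FPKM in the KO/TAC hearts, against 0.46, 1.96 and 1.44 FPKM in the WT/TAC hearts, without overlap, and its log2 fold change was -1.20 (adjusted p = 0.342, limma). Col8a2 passed the minimum only through the WT/TAC hearts and rested on as few as 6 fragments in the lowest heart. Without WT/TAC replicate 1 its log2 fold change was -1.59 (adjusted p = 0.0922, limma). Col8a1 was 6.42, 3.76 and 4.51 FPKM in the KO/TAC hearts, against 5.26, 22.4 and 5.15 FPKM in the WT/TAC hearts. Only WT/TAC replicate 2 stood out in Col8a1, and the gene did not pass the limits (-0.78, interval -2.07 to 0.52).

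The multiplexins Col15a1 and Col18a1 carry sugar chains and lie at the border of basement membranes. Col15a1 was 38.7, 19.5 and 23.3 FPKM in the KO/TAC hearts, against 52.2, 45.7 and 36.0 FPKM in the WT/TAC hearts, with overlapping groups. Its log2 fold change was -0.75 (adjusted p = 0.387, limma), and at -0.63 without WT/TAC replicate 1 it no longer passed the unadjusted limit. Col18a1, the precursor of endostatin, did not pass (-0.52, interval -1.38 to 0.34). The transmembrane genes Col13a1 (-0.25, interval -0.92 to 0.41) and Col23a1 (-0.74, interval -2.15 to 0.67) did not pass, and Col17a1 and Col25a1 reached at most 0.17 FPKM. The anchoring fibril gene Col7a1 and the remaining beaded filament genes Col6a4 and Col6a5 reached at most 0.14 FPKM. Col26a1 and Col28a1 reached at most 0.91 FPKM, and Col28a1 was 0.26, 0.35 and 0.21 FPKM in the KO/TAC hearts, against 0.54, 0.57 and 0.57 FPKM in the WT/TAC hearts, under the minimum set for a test.

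Summed by type, the groups were apart in the fibrillar, FACIT and multiplexin genes and overlapped in the other types. The 11 fibrillar genes summed to 180, 105 and 113 FPKM in the KO/TAC hearts, against 247, 279 and 213 FPKM in the WT/TAC hearts. The 6 basement membrane genes summed to 250, 122 and 168 FPKM in the KO/TAC hearts, against 124, 240 and 179 FPKM in the WT/TAC hearts. The groups were apart in the first sum and mixed in the second. The 9 FACIT genes summed to 10.7, 9.43 and 6.93 FPKM in the KO/TAC hearts, against 22.0, 19.9 and 18.2 FPKM in the WT/TAC hearts, again without overlap, and the 2 multiplexin genes to 42.7, 25.9 and 26.4 FPKM in the KO/TAC hearts, against 60.3, 49.4 and 44.5 FPKM in the WT/TAC hearts. Over all 43 genes the sums were 580, 320 and 383 FPKM in the KO/TAC hearts, against 552, 718 and 560 FPKM in the WT/TAC hearts. In this sum KO/TAC replicate 1 exceeded 2 WT/TAC hearts.

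The make-up of the collagen transcripts was computed for each heart. Type I made up 14.2% ± 2.13 of the summed collagen FPKM in KO/TAC hearts and 19.6% ± 1.34 in WT/TAC hearts (SD, 3 hearts each). The α1 and α2 chains of type IV made up 39.3% ± 3.82 in KO/TAC hearts and 26.6% ± 6.66 in WT/TAC hearts (SD, 3 hearts each), with every KO/TAC heart, at 34.9% or more, above every WT/TAC heart, at 31.4% or less. The α1 and α2 chains of type VI held a similar share in both groups, 14.3% ± 0.60 in KO/TAC and 14.6% ± 1.07 in WT/TAC hearts (SD, 3 hearts each). These shares sum to a whole, so a lower share of one type raises the others, and they were not tested.

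**Figure D4:**
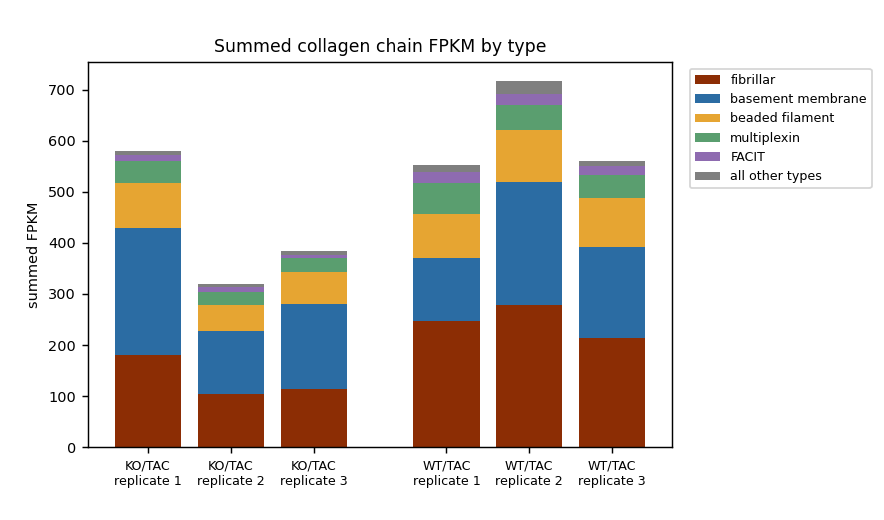
Summed FPKM of the 43 collagen genes in each heart, stacked by type of collagen from 0. The fibrillar part at the bottom is at most 180 FPKM in the 3 KO/TAC hearts on the left and at least 213 FPKM in the 3 WT/TAC hearts on the right, while the basement membrane part varies from 122 to 250 FPKM in KO/TAC and from 124 to 240 FPKM in WT/TAC hearts.

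Chains of one protein are needed in fixed proportions, and the ratio of chains was compared between the groups in 9 pairs. Not all are partners: Col3a1 to Col1a1 and Col5a2 to Col3a1 pair different collagens, and Col4a5 to Col4a1 pairs chains of different type IV networks. With 3 hearts against 3 a two-sided exact permutation test cannot give a p below 0.1. The ratio of Col1a1 to Col1a2 was 0.945, 0.76 and 0.855 in the KO/TAC hearts, against 0.673, 0.702 and 0.726 in the WT/TAC hearts. This was the only one of the 9 ratios in which the groups did not overlap, with a log2 difference of 0.28 (exact permutation p = 0.1, adjusted p = 0.72 over the 9 ratios).

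The ratio of Col4a1 to Col4a2 was nearly constant, at 1.43, 1.32 and 1.38 in the KO/TAC hearts, against 1.35, 1.39 and 1.41 in the WT/TAC hearts (exact permutation p = 0.9). The ratio of Col6a1 to Col6a2 was similarly steady, at 0.844, 0.874 and 0.900 in the KO/TAC hearts, against 0.882, 0.879 and 0.860 in the WT/TAC hearts (exact permutation p = 1). The remaining ratios, Col3a1 to Col1a1, Col5a1 to Col5a2, Col5a2 to Col3a1, Col6a3 to Col6a1, Col4a3 to Col4a4 and Col4a5 to Col4a1, had exact permutation p between 0.2 and 1.

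The deleted microRNA recognises messages mainly through bases 2 to 8 of its mature strand, the seed, and collagen messages were searched for its site. Mature miR-27b-3p, at chr13:63300760-63300780 of GRCm38.p6 on the plus strand (RefSeq), is shown with the seed in capitals.
mmu-miR-27b-3p: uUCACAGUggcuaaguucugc
The pairing site, ACTGTGA read on the sense strand, was looked for in GENCODE M21 (GRCm38), taking for every gene its longest 3′ UTR. It was found in 6 of the 29 collagen genes tested, or 20.7%, against 17.3% of 12167 genes tested that have a 3′ UTR. The sites of the 3 genes that were lower are shown with 8 bases before them and 7 after, read along the message, with the match in capitals. They lie at chr1:45376024-45376030 (Col5a2), chr1:82452105-82452111 (Col4a4) and chr10:76598047-76598053 (Col6a2), all on the minus strand.
Col5a2 site: ccacaagaACTGTGActgttta
Col4a4 site: caggagaaACTGTGAggctcct
Col6a2 site: tggtaataACTGTGAgggggcc
The other genes with a site, Col18a1, Col23a1 and Col27a1, were not past the limits.

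Of the genes holding the site 3 of 6 were lower, and of those without it 12 of 23. The median log2 fold change was -0.61 over the 6 genes with a site and -0.66 over the 23 without. All 6 genes with a site had a negative fold change, but so did 26 of all 29 collagen genes tested. A match of 7 bases is a description of the sequence and does not show that the microRNA binds there.

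Promoter windows were held for 34 of the 43 collagen genes, from 250 bases before to 50 bases after the start, and no window of Col1a1 or Col5a2 was used here. The CCAAT box was present in 13 of the 34 genes (38.2%), against 37.4% of all 32851 promoter windows. The GC box was present in 22 (64.7%), against 35.7% of all windows, and the TATA box in 4 (11.8%), against 13.6%. A collagen gene counted if any of its windows held the motif, whereas the background counts each window, so the percentages are not fully alike. No factor was measured at these motifs.

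Genes whose products work on collagen were examined from lists of known roles, chosen with earlier results of these data known. Counts in these and in the marker lists stand beside 6.14% of all genes lower and 4.94% higher by the same limits. Without WT/TAC replicate 1 these shares were 7.49% and 7.55%. Of 28 collagen processing genes tested (folding, hydroxylation, trimming and cross-linking), 13 were lower and 1 higher, with a median log2 fold change of -0.41, and without WT/TAC replicate 1 they were 14 and 0. Pcolce, which speeds removal of the procollagen C-terminal end, was 46.6, 39.8 and 35.9 FPKM in the KO/TAC hearts, against 72.1, 79.7 and 69.0 FPKM in the WT/TAC hearts, a log2 fold change of -0.85 (adjusted p = 0.167, limma). Its relative Pcolce2 (-0.85) and P3h3 (-0.79), a member of the prolyl 3-hydroxylase family, were lower, and the gene that was higher was Colgalt2, one of the collagen galactosyltransferases, at 4.22, 3.07 and 2.99 FPKM in the KO/TAC hearts, against 2.26, 2.64 and 2.41 FPKM in the WT/TAC hearts. The log2 fold change of Colgalt2 was 0.41, and at 0.36 without WT/TAC replicate 1 it no longer passed.

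Of 8 collagen receptor genes tested, 3 were lower and 0 higher, namely Mrc2, which takes up collagen fragments (-0.96), the integrin gene Itga11 (-0.74) and the receptor kinase gene Ddr1 (-0.67), of which Ddr1 no longer passed without WT/TAC replicate 1 (-0.42). Of 10 genes of collagen breakdown and its inhibitors, 3 were lower and 1 higher, where 6.14% of all genes were lower and 4.94% higher. The lower ones were the gelatinase gene Mmp2 (-1.18), the collagen-cleaving protease gene Ctsk (-1.10) and the inhibitor gene Timp2 (-0.94), and the higher one was the inhibitor gene Timp4, at 46.0, 24.5 and 29.6 FPKM in the KO/TAC hearts, against 12, 21.5 and 23.6 FPKM in the WT/TAC hearts. For Timp4 the log2 fold change was 0.80, and at 0.50 without WT/TAC replicate 1 the gene no longer passed. Genes for synthesis and for breakdown were thus both among those lower.

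Of 18 genes for matrix proteins that bind fibrils, 9 were lower and 1, Ogn, was higher, where 6.14% of all genes were lower and 4.94% higher. The proteoglycan gene Bgn was 188, 177 and 138 FPKM in the KO/TAC hearts, against 382, 444 and 356 FPKM in the WT/TAC hearts, a log2 fold change of -1.24 (adjusted p = 0.11, limma). Comp (-3.05) and Fbln2 (-0.98) were lower too. Of 12 basement membrane partners 1 was lower, the laminin chain gene Lamc1 (-0.38), and 0 were higher, beside the 6.14% of all genes that were lower, and the list's median log2 fold change was -0.18. Without WT/TAC replicate 1, 2 of the 12 were lower, Lamc1 and Nid1, which encodes a linker of laminin and type IV collagen (-0.43).

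Of 20 genes of TGF-β signalling, the main known inducer of fibrillar collagen, 11 were lower and 0 higher, beside 6.14% of all genes lower. Without WT/TAC replicate 1, 14 were lower, beside 7.49% of all genes. Ccn2, which encodes a matricellular protein induced by TGF-β and by stretch, was 35.7, 38.4 and 35.5 FPKM in the KO/TAC hearts, against 463, 373 and 200 FPKM in the WT/TAC hearts, a log2 fold change of -3.14 (adjusted p = 0.0706, limma). Ltbp3 (-0.91) and Ltbp4 (-0.74), which hold latent TGF-β in the matrix, were lower as well. These lists overlap in part with the marker lists, and Comp, Sox9, Dcn, Lum, Prelp, Postn and Lox are members of more than one.

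Of 13 fibroblast markers, 8 were lower and 0 higher, with and without WT/TAC replicate 1, beside 6.14% and 7.49% of all genes lower. The median log2 fold change of the list was -0.67 with that heart and -0.49 without it. The other 5, Dpt (-0.46), Gsn (-0.74), Thy1 (-0.05), Ddr2 (-0.14) and Ly6a (0.32), did not pass the limits. The list summed to 1139 to 1334 FPKM in KO/TAC hearts, against 1516 to 2593 FPKM in WT/TAC hearts, so the ranges were apart. Pdgfra, a receptor that marks cardiac fibroblasts, was 7.35, 6.12 and 7.10 FPKM in the KO/TAC hearts, against 12.1, 9.34 and 10.4 FPKM in the WT/TAC hearts, a log2 fold change of -0.59 (adjusted p = 0.274, limma). Medag (-1.23) and Pi16 (-1.34) were also lower. Of 10 markers of activated fibroblasts 3 were lower (Comp, Meox1 and Lox), while Acta2 (0.18), Tnc (0.07) and Fap (-0.03) were among the 7 that did not pass, and 4 were lower without WT/TAC replicate 1 (Comp, Meox1, Cilp and Thbs4). The median log2 fold change of the activated fibroblast list was -1.03 with all hearts and -1.39 without WT/TAC replicate 1. That list summed to 93.4 to 125 FPKM in KO/TAC hearts, against 101 to 336 FPKM in WT/TAC hearts. The part of fibroblast content in the collagen values was not tested.

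Of the other cell types, 0 of 10 smooth muscle and pericyte markers, 0 of 10 endothelial markers, 0 of 10 macrophage markers, 0 of 7 Schwann cell markers and 0 of 7 adipocyte markers passed the limits in either direction (limma, unadjusted p under 0.05 and 1.2-fold). The markers with the smallest p in these lists were Abcc9 (1.13, interval -0.14 to 2.40), Egfl7 (0.26, interval -0.01 to 0.54), Csf1r (-0.30, interval -0.60 to 0.003), Mbp (-0.92, interval -2.46 to 0.62) and Fabp4 (0.76, interval -0.13 to 1.65). Without WT/TAC replicate 1, Des (-0.59) and Notch3 (-0.39) of the smooth muscle and pericyte list were lower and Abcc9 (0.46) higher, and that list's median log2 fold change was -0.32, against 0.02 with all hearts. In the same fit the endothelial marker Tek (0.31) was higher, and the macrophage, Schwann cell and adipocyte lists again had 0 past the limits. The adipocyte marker Adipoq was 0.24, 10.2 and 0.06 FPKM in the KO/TAC hearts, against 0.31, 0 and 22.1 FPKM in the WT/TAC hearts, high in KO/TAC replicate 2 and WT/TAC replicate 3 only.

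Of 12 cardiomyocyte markers 1 was higher, Pln (0.84), and without WT/TAC replicate 1 Tnni3 (0.41) and Myl2 (0.37) were higher as well. Of all genes, 6.14% were lower and 4.94% higher, or 7.49% and 7.55% without that heart. The cardiomyocyte list had a median log2 fold change of 0.26, and of 0.18 without WT/TAC replicate 1. It summed to 62461 to 64516 FPKM in KO/TAC hearts, against 31975 to 56100 FPKM in WT/TAC hearts, so the ranges were apart. Without WT/TAC replicate 1 the lowest WT/TAC sum was 54555 FPKM. The part of cardiomyocyte content in the collagen values was not tested. Of 6 valve markers tested 4 were lower (Comp, Sox9, Prelp and Vcan), of which Vcan no longer passed without WT/TAC replicate 1 (-0.62), and their list summed to 40.1 to 50.3 FPKM in KO/TAC hearts, against 73.8 to 186 FPKM in WT/TAC hearts. Of 4 cartilage markers tested 2, Comp and Sox9, were lower, and that list summed to 2.83 to 9 FPKM in KO/TAC hearts, against 20.6 to 30.1 FPKM in WT/TAC hearts. Comp, which is also a fibril-binding protein, supplied most of that sum in WT/TAC hearts, with 1.64, 4.48 and 0.92 FPKM in the KO/TAC hearts, against 21.2, 18.6 and 20.08 FPKM in the WT/TAC hearts. The cartilage markers Acan, Matn1 and Hapln1 reached at most 0.17 FPKM in any heart, and Cnmd did not pass (1.03, interval -0.20 to 2.25). Valve and cartilage-like tissue also makes collagen, and its part in the values, including those of Col9a2, was not tested.

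Markers of the atrium and of the heart's outer lining were examined last, beside the 6.14% of all genes that were lower. Of 8 atrial markers 1 was lower, Nppa, at 803, 1114 and 79.4 FPKM in the KO/TAC hearts, against 55795, 6236 and 5647 FPKM in the WT/TAC hearts. The atrial list summed to 112 to 2122 FPKM in KO/TAC hearts, against 6251 to 80760 FPKM in WT/TAC hearts, a sum to which Nppa, also induced by load in the ventricle, contributed most. The median log2 fold change of the atrial list was -3.10 with all hearts. Without WT/TAC replicate 1 it was -1.88, over the 7 genes then tested. Sln, an atrial calcium pump regulator, was listed at 0 in KO/TAC replicate 1 and WT/TAC replicate 2. Of 8 mesothelial markers tested 2 were lower, Krt18 (-2.29) and Wt1 (-0.74), and that list summed to 2.38 to 12.7 FPKM in KO/TAC hearts, against 6.51 to 101 FPKM in WT/TAC hearts, with Upk1b listed at 0 in KO/TAC replicates 1 and 3 and in WT/TAC replicate 2. The part of atrial or mesothelial tissue in the collagen values was not tested.

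The hearts were also compared by Myl7, which exceeded 300 FPKM in KO/TAC replicate 2 and in WT/TAC replicates 1 and 3, a division chosen after the values were seen. In 6 of the 29 collagen genes (Col4a6, Col6a6, Col11a2, Col13a1, Col18a1 and Col23a1), all 3 hearts with high Myl7 were above the other 3 hearts. This was 20.7% of the collagen genes, against 9.23% of all genes tested. None of the 6 was among the 15 lower genes, which that order makes nearly certain, since it puts WT/TAC replicate 2 below KO/TAC replicate 2. Col23a1, at 0.48, 0.77 and 0.59 FPKM in the KO/TAC hearts, against 4.4, 0.36 and 1.0 FPKM among WT/TAC hearts, and Col4a6 ordered the 6 hearts exactly as Myl7 did. With hearts set against hearts of the same side, the KO/TAC hearts were below the WT/TAC hearts on both sides in 17 of the 29 collagen genes, or 58.6%, against 16.5% of all genes tested. The 12 genes whose groups did not overlap meet this by construction, and 1 group is a single heart on each side, so that this is a description with no test. Col8a2, Col9a2, Col11a2 and Col12a1 are among the 17 and passed the minimum only through the WT/TAC hearts. For Col1a2 the single KO/TAC heart with high Myl7 had 30.3 FPKM, against 62.3 and 68.6 FPKM in the WT/TAC hearts with high Myl7, and the KO/TAC hearts with low Myl7 had 39.9 and 26.3 FPKM, against 79.1 FPKM in the WT/TAC heart with low Myl7.

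**Figure D5:**
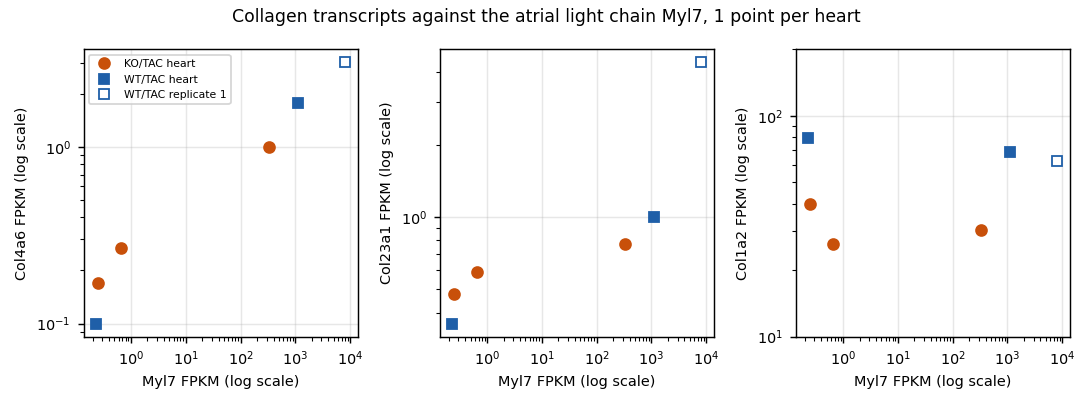
FPKM of Col4a6, Col23a1 and Col1a2 against FPKM of the atrial light chain Myl7, both on log scales, 1 point per heart (orange circles KO/TAC, blue squares WT/TAC, open square WT/TAC replicate 1). Col4a6 and Col23a1 order the hearts as Myl7 does, and in Col1a2 the KO/TAC hearts are below the WT/TAC hearts at low and at high Myl7.

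The number of calls changed with single hearts left out. Col1a1, Col1a2, Col5a2, Col4a5 and Col14a1 were lower in all 17 alternative fits, which included leaving out each heart in turn and log2 Myl7 as a covariate. The other 10 lost the unadjusted limit in at least 1 alternative, although the sign of all 15 was negative in every alternative in which they were tested. KO/TAC replicate 1 had the highest KO/TAC level in 12 of the 15 genes, and WT/TAC replicate 2 the highest WT/TAC level in 10. Against 15 lower genes with all hearts, leaving out KO/TAC replicate 3 gave 5 (with 2.92% of all genes lower), leaving out KO/TAC replicate 2 gave 7 (4.01%), and leaving out WT/TAC replicate 3 gave 9 (5.23%). With WT/TAC replicate 2 left out 10 were lower (9.43%), and with KO/TAC replicate 1 left out 14 (4.75%).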

How the data were processed

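RNA-seq libraries of 3 KO/TAC and 3 WT/TAC hearts were made with a stranded kit per the labels. The deposited values are FPKM to 2 decimals, 1 value per Entrez Gene ID and heart, which the authors made with HISAT2 2.0.5 and StringTie 1.3.3 per the submitters' notes, while alignment settings are not given in the sources read for it. The notes list the builds hg38 and mm9 without saying what each was used for, so the build of these values is unknown, and coordinates printed here come from the RefSeq and GENCODE tables of GRCm38. Fragment counts could not be recovered, since 55.5% to 68.6% of low values of single-transcript genes lay within 0.2 of a whole step, so no counting intervals are given and the depth is a rough estimate. RefSeq symbols matched 17441 of 17570 IDs.

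For each gene averaging 0.5 FPKM or more, log2(FPKM + 0.5) was fitted in R 4.3.3 by limma 3.58.1 (lmFit, eBayes with trend), with p two-sided and adjusted by Benjamini-Hochberg over 12520 genes. Sums, ratios, sequences and plots were made using Python 3.11.15 (packages numpy 2.4.6, pandas 2.3.3, matplotlib 3.10.9). On data simulated for this comparison over 12520 genes, the unadjusted limits recovered 91.4% of 200 genes changed by a log2 of 1, and 619.8 unchanged genes passed on average, so the count of collagen genes is read against the share of all genes. Mice are the replicates as far as the labels number them as separate hearts; whether they came from one litter or operation day is not given.

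Every collagen gene is accounted for. Values per heart are given for those past the limits and for the main chains, and of each other list up to 3 genes with the smallest p past the limits, or else the 1 with the smallest p, were named, with Myl7, Myl2 and Nppa as chamber genes. Colgalt2, Timp4, Ogn and Vcan, list members whose calls changed or did not pass, and genes of single heart patterns were named after their values were seen. The members and lists were chosen with earlier results of these data known. Alternatives tried were a pseudocount of 0.1 or of 1, testing without a filter, requiring a mean of 5 FPKM, median-ratio rescaling, quantile normalization, no variance trend, robust eBayes, a gene-by-gene 2-sample fit, a replicate block, log2 Myl7 as a covariate and each heart left out in turn.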

Additional observations from a re-analysis of the deposited data

How the results depend on the processing

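The number of collagen genes lower in KO/TAC was 15 with both other pseudocounts, rescaling, quantile normalization, no variance trend and robust eBayes, when 5.59% to 6.19% of all genes were lower. It was 16 of 43 without a filter (4.91% of all genes), 10 of 15 at a minimum mean of 5 FPKM (6.56%), 16 with log2 Myl7 as a covariate (5.59%) and 7 with the gene-by-gene 2-sample fit (4.65%). Leaving out 1 heart gave 5 to 14 lower genes, when 2.92% to 9.43% of all genes were lower, and 0 to 1 higher, the 1 being Col5a3 without KO/TAC replicate 2. The fit with the replicate block gave 12 lower genes (4.19% of all genes), with Col6a1, Col6a2 and Col9a2 lost. Same-numbered hearts did not deviate together (correlations of -0.29, -0.57 and -0.35), which cannot show whether they shared a litter or operation day. Signs turned only in genes and ratios not called. With log2 Myl7 as a covariate the log2 fold change was -0.35 for Col4a1, -0.32 for Col4a2, -0.34 for Col5a3, 0.30 for Col6a6 and 0.00 for Col13a1. It was 0.07 for Col6a6 at a pseudocount of 0.1 and 0.02 for Col6a3 after quantile normalization. With 1 heart left out it ranged from -0.26 to 0.32 for Col4a1, -0.23 to 0.30 for Col4a2, -0.27 to 0.56 for Col5a3, -0.35 to 0.22 for Col6a3 and -0.43 to 0.24 for Col6a6. The log2 ratio difference then ranged from -0.29 to 0.24 for Col3a1 to Col1a1, -0.02 to 0.02 for Col6a1 to Col6a2 (0.00 at a pseudocount of 1) and -0.04 to 0.02 for Col4a1 to Col4a2. The causes were not tested. Col9a2 and Col8a2 averaged under 1 FPKM. By the rough depth estimate they rested on as few as 2 and 6 fragments in the lowest heart. In every alternative 0 collagen genes passed the adjusted limit.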
